A study of Mus musculus with 3 samples.

Results

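Periportal hepatocytes, the hepatocytes that lie next to the portal vein at the inflow end of the liver lobule, were examined as they appeared in a single-cell survey of mouse liver. A cell was taken as one of them by the molecules (UMIs) counted in it: 200 to 4000 genes, at least 500 UMIs, at most 25% of UMIs from mitochondrially encoded genes, no UMI of Ptprc (CD45, the pan-leukocyte surface phosphatase), at most 2 UMIs of Clec4f, Vsig4 and Ptprb together, and at least 5% of UMIs from 5 hepatocyte genes (Alb, Apoa1, Apoa2, Ttr and Fabp1). It also had to hold at least 3 UMIs of Cyp2f2, Hal, Sds and Aldh1b1 together, and at least 2 times as many as of the 6 pericentral genes Cyp1a2, Cyp2c29, Cyp2c37, Cyp2a5, Gulo and Oat. Of 52335 cells in all, 257 met this rule, 154 in one library and 103 in the other.

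The cells came from livers of C57BL/6 J mice. The study describes non-parenchymal preparations, whereas the sample labels speak of parenchymal cells. They were captured on the BD Rhapsody system and sequenced as whole transcriptomes. One library, called the WT library here, held wild-type mice. It could be matched to its sample only by elimination, because the sample title reads MCD, which in the study stands for a methionine-choline deficient diet, the header of the run carries another name, and the study describes wild-type mice kept on normal chow diet (NCD) over 16 weeks. Its diet is therefore uncertain. The other library, the HFHC pool, mixed wild-type mice and Chil1-/- mice (Chi3l1-/- in the study) after 16 weeks on a high-fat, high-cholesterol (HFHC) diet, written HCFC for one genotype and HFHC for the other in its title. The number of mice behind either library and their age at capture were not given in the sources used here. No genotype was given per cell, so that the pool is described as a whole. Each condition had 1 library. Diet, genotype, animals, capture and sequencing run therefore cannot be told apart, no test between the libraries was possible, and all intervals below are 95% intervals that cover counting error only. By the study's methods the preparation spun hepatocytes out at low speed and kept the supernatant, in which case the hepatocytes measured were those left over. Chil1, the gene that encodes Chi3l1, had 0 UMIs in the periportal cells of both libraries, against 2507 UMIs in 1372 cells of the WT library and 253 UMIs in 81 cells of the HFHC pool as a whole. Levels are given as CPM, the UMIs of a gene scaled to a total of 1000000, and 0 UMIs in the members allow a level of up to 10.5 CPM in the WT library and 13.6 CPM in the pool, taking 3 UMIs as the limit for a gene not seen. The tables held 53720863 and 71981673 UMIs in 30734 and 21601 cells, of which 19754 and 16413 passed the limits on genes, UMIs and mitochondrial share. Both tables held 756 of the same cell indices, 2.46% of the WT library and 3.5% of the pool, and 0 shared indices were members in both.

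As background, hepatocytes divide their work along the lobule. Cells near the portal vein receive oxygen- and nutrient-rich blood and are known for the urea cycle, gluconeogenesis, breakdown of amino acids and secretion of plasma proteins, while cells around the central vein are known for glutamine synthesis, xenobiotic metabolism and bile acid synthesis. The 4 genes that chose the cells are of this kind: Cyp2f2 encodes a cytochrome P450, Hal histidine ammonia-lyase, Sds serine dehydratase and Aldh1b1 a mitochondrial aldehyde dehydrogenase.

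Hamp and Pck1 are described below as a hormone gene and a gluconeogenic gene that were lower in the HFHC pool, and the 250 bases before the start of each are shown for that reason. Hamp encodes hepcidin, the hormone that limits iron export into blood (GRCm38 chromosome 7, 30942368 to 30944032), and Pck1 encodes cytosolic phosphoenolpyruvate carboxykinase, the enzyme that commits carbon to gluconeogenesis (chromosome 2, 173153048 to 173159273). These gene coordinates are GENCODE's, whereas both stretches and all distances are counted from the RefSeq gene start on GRCm38.p6, at 30944029 for Hamp and 173153073 for Pck1, which lies inside the GENCODE gene in both cases. The stretches are written 5′ to 3′ in the direction of the gene, chr7:30944030-30944279 on the minus strand for Hamp and chr2:173152823-173153072 on the plus strand for Pck1. Capitals in the Hamp sequence mark GGCGCC, the core of a BMP response element, which starts 109 bases before the gene, and a match to the STAT motif TTCNNNGAA, which starts 97 bases before it. Capitals in the Pck1 sequence mark ACGTCA, a half-site of a cyclic AMP response element, which starts 91 bases before the gene. Over both strands, GGCGCC stood in 9.59%, TTCNNNGAA in 7.02% and ACGTCA in 6.47% of the same 250-base windows of 32851 promoters, and a match says nothing of whether a factor binds there.
Hamp: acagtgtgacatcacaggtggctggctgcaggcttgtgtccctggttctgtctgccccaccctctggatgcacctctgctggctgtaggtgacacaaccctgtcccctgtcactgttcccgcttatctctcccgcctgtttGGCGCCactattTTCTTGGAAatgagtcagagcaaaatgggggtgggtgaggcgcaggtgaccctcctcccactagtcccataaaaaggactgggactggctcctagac
Pck1: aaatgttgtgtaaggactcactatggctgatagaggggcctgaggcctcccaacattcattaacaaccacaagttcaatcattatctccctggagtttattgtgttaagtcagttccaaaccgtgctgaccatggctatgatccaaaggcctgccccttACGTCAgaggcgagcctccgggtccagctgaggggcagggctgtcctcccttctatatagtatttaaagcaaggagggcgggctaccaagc

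The genes of the rule describe the members and are given without a test. Cyp2f2 had 573 UMIs in the WT library, 2005 CPM (1844 to 2176), and was seen in 146 of 154 cells. In the HFHC pool it had 245 UMIs, 1109 CPM (974 to 1257), in 75 of 103 cells. Hal was at 1050 CPM (934 to 1175) in the WT library and 1163 CPM (1025 to 1314) in the pool. Sds was at 287 CPM (228 to 356) and 385 CPM (307 to 476). Aldh1b1 had 11 UMIs in 10 cells of the WT library and 59 UMIs in 38 cells of the pool. The rule thus rested on different genes in the libraries. Left out of the rule one at a time, Cyp2f2 would lose 100 of the 154 members in the WT library and 38 of the 103 in the pool, Hal 51 and 48, Sds 18 and 12, and Aldh1b1 2 and 11. Thinned to 1000 UMIs a cell, which 109 and 70 members reached and 45 and 33 did not, Cyp2f2 was still seen in 85.3% and 54.3% of members and in 1.96% and 1.83% of B cells, and Hal in 71.6% and 68.6% of members.

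Most members stood on few molecules. The median member held 5 UMIs of the 4 genes in the WT library and 4 in the pool, 50 and 30 members held exactly 3, and 21 and 17 held 10 or more. At least 2 of the 4 genes were seen in 137 of 154 and 90 of 103 members, and no pericentral UMI in 139 and 91. The members had a median of 1372 UMIs and 716 genes in the WT library and 1605 UMIs and 784 genes in the pool. One WT member alone held 24826 UMIs, 8.69% of all UMIs of the members of its library, and values that moved by more than their spread without the deepest cell of each library are given both ways where they are named.

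Many members lay near the limit on hepatocyte genes. Their median share of a member's UMIs was 5.79% in the WT library, with a highest value of 10.1%, and 6.0% in the pool, with a highest value of 13.6%. In the WT library 57 members lay between 5 and 5.5%, and 82 cells of the same periportal pattern lay just outside, from 4.5 to under 5%. In the pool the numbers were 28 and 60. At the other end 16 WT and 26 pool members held 8% or more. In all, 808 cells of the WT library and 2255 of the pool met every other part of the rule and fell under the limit. These are other cells of the same libraries and serve below as a further set with the periportal pattern. Their median UMIs were 1146 and 2004, and their hepatocyte genes took a median of 3.09% and 2.42%.

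**Figure D1:**
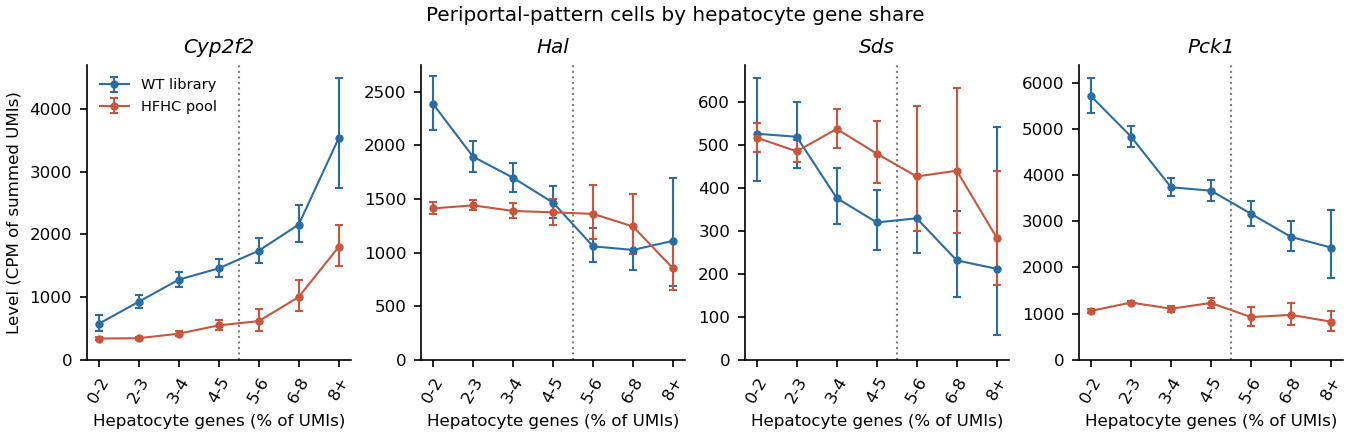
Level of 4 genes (vertical axis, CPM of summed UMIs, with 95% counting intervals) in cells with the periportal pattern, grouped by the share of their UMIs that the 5 hepatocyte genes take (horizontal axis, percent); the dotted line is the 5% limit, and the cells to its right are the members. Cyp2f2 climbed with the hepatocyte share in both libraries, from 572 to 3540 CPM in the WT library and from 337 to 1802 CPM in the pool, whereas Hal and Pck1 of the WT library were highest at the left.

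The 4 genes did not keep a fixed proportion along this share. From cells with under 2% to cells with 8% or more of hepatocyte genes, Cyp2f2 went from 572 to 3540 CPM in the WT library and from 337 to 1802 CPM in the pool. Hal went from 2388 to 1109 CPM in the WT library and from 1412 to 851 CPM in the pool. Pck1, which the rule did not use, went from 5715 to 2430 CPM in the WT library and stayed between 823 and 1238 CPM in all bins of the pool. Summed UMIs of 8 urea cycle genes went down along the same bins, from 14090 to 10143 CPM and from 14282 to 7121 CPM, while 21 plasma protein genes outside the rule went up, from 16718 to 57742 CPM and from 12581 to 75014 CPM. The hepatocyte genes and these levels share 1 total per cell.

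Urea cycle genes, which the rule did not use, were set beside B cells, which should lack hepatocyte RNA. The rule itself asked for hepatocyte genes and the B cells were taken below that limit, so this does not check the periportal label. Urea cycle genes summed to 10013 CPM (9650 to 10387) in WT members and 8558 CPM (8177 to 8953) in pool members, against 399 and 771 CPM in B cells. They summed to 6230 and 3938 CPM in pericentral hepatocytes, from 84 and 307 UMIs. In the periportal-pattern cells under the limit they summed to 12747.5 and 13096.8 CPM, above the members. The genes of the rule are high in the members by choice, and their B cell levels are given only as the background. In B cells, taken by Cd79a, Cd79b and Ms4a1, Cyp2f2 was at 28.6 CPM in the WT library and 23.2 CPM in the pool, and Hal at 22.5 and 61.7 CPM. Alb, which encodes albumin, was at 38889 and 45276 CPM in the members against 577 and 882 CPM in B cells. A UMI of Cyp2f2 was found in 94.8% and 72.8% of members and in 3.47% and 5.34% of B cells, whose median depths were 1489 and 2776.5 UMIs. Markers of other types were sparse. For leukocytes, Kupffer cells and endothelial cells this was partly set by the rule, through Ptprc, Clec4f, Vsig4 and Ptprb, and does not check the label. All 5 stellate cell markers were at 0 in both libraries, cholangiocyte markers had 1 UMI in all, and B cell markers summed to 10.5 and 18.1 CPM and T cell markers to 38.5 and 27.2 CPM. Kupffer cell markers summed to 192 and 131 CPM with Marco at 0, endothelial markers to 122 and 63.4 CPM, and erythroid markers to 14.0 and 4.53 CPM. Neutrophil markers differed between the libraries, with 39 UMIs (136 CPM) in 31 WT members and 3 UMIs (13.6 CPM) in 3 pool members, where S100a8, S100a9 and Retnlg were at 0. In B cells the same markers were at 1692 and 167 CPM, and the Kupffer cell markers at 3209 and 251 CPM. The part of RNA of other cells in the differences between the libraries was not tested.

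Members made up 154 of 350 hepatocytes of the WT library, 44.0% (38.7 to 49.4%, exact binomial), and 103 of 372 in the pool, 27.7% (23.2 to 32.5%). Hepatocytes with the mirrored pericentral pattern numbered 8 and 58, and 188 and 211 hepatocytes fell in neither class, of which 173 and 194 held fewer than 3 UMIs of the 10 zone genes. Among hepatocytes with either pattern the periportal share was 95.1% (90.5 to 97.8%) in the WT library and 64.0% (56.0 to 71.4%) in the pool. In the cells under the limit the difference was smaller, with 66.8% (64.1 to 69.5%) in the WT library and 61.8% (60.2 to 63.4%) in the pool. Without Cyp2f2 in the rule the shares were 15.4% and 17.5% of hepatocytes, so that their order rested on that gene. With the limit on hepatocyte genes lowered to 1%, a setting chosen after seeing the data, the shares were 27.2% in the WT library and 27.7% in the pool, so that the difference rested on the limit as well. Thinned to 1000 UMIs before the rule, 74 of 169 (43.8%) and 44 of 203 hepatocytes (21.7%) were left as members, so that the order of the shares was kept.

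Genes outside the rule were compared between periportal and pericentral hepatocytes within each library, as the log2 ratio of CPM with 1 UMI added. In the HFHC pool, 481 genes had at least 100 UMIs in both classes together, and 40 of them (8.32%) were 2-fold or more higher and 26 (5.41%) 2-fold or more lower in periportal cells. Scaled by the median of gene ratios, the counts were 31 higher and 36 lower. Of 22 genes known for periportal expression, 11 could be compared, of which 7 were 2-fold or more higher and 0 lower, with a median of 1.28 against 0.11 over all genes. Of 32 genes known for pericentral expression, 9 could be compared, of which 0 were higher and 7 were 2-fold or more lower, with a median of -3.61. These were genes that the rule did not use, though the lists were chosen with results of these data known. The minimum of UMIs was on the sum of both classes, so that a gene could pass it through the class in which it was high alone. The list counts between zones, here and below, are therefore descriptions and no support for the label.

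Of the 7 urea cycle genes compared in the pool 4 were past 2-fold in the periportal cells. Arg1, arginase, which releases urea, had 625 UMIs in the 103 periportal and 62 in the 58 pericentral hepatocytes of the pool, a log2 ratio of 1.81. Cps1, carbamoyl phosphate synthetase, which lets ammonia into the cycle, had 198 and 21 UMIs and a ratio of 1.67. Asl, argininosuccinate lyase, was 1.37 higher and Ass1, argininosuccinate synthetase, 1.11 higher. Otc, ornithine transcarbamylase, and the carriers Slc25a15 and Slc25a13 lay between 0.21 and 0.31, with intervals across 0. Pck1 was 1.62 higher with 200 and 22 UMIs. At the other end, Glul, glutamine synthetase, had 21 and 313 UMIs and a ratio of -5.34, Cyp2e1, an ethanol-oxidising cytochrome P450, 29 and 572 UMIs and -5.76, and Cyp3a11 13 and 391 UMIs and -6.31. Glul and Cyp2e1 were named after their values were seen. Hsd17b13, a lipid droplet enzyme, named in the same way, had 126 and 7 UMIs, a ratio of 2.49.

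In the WT library the pericentral class held 8 cells and 13483 UMIs. There 424 genes could be compared, with 8.49% higher and 6.6% lower, or 28 genes higher and 32 lower when scaled by the median of gene ratios. Of the periportal list 4 of 14 genes were 2-fold or more higher and 0 lower, of the pericentral list 0 of 4 higher and 3 lower, and of the urea cycle 1 of 6 higher and 0 lower. Genes reached the minimum of UMIs there almost only through the periportal class, and 2 of the 4 had 0 pericentral UMIs. Ass1 was 1.26 higher, Arg1 0.75 higher and Pck1 0.36 higher in its periportal cells, while Cps1 was at -0.75 with 239 and 18 UMIs. The cells under the limit of the WT library gave a set that shared no library with the pool's members. In both libraries the pericentral-pattern cells under the limit reached down to 0% of UMIs from hepatocyte genes. Stellate cell markers had 250 UMIs there in the WT library and 193 in the pool, against 13 and 23 in the periportal-pattern cells. The part of other cell types in the ratios of the cells under the limit was not tested. In 808 periportal-pattern against 401 pericentral-pattern cells of the WT library, where 2.28% of 2498 genes were higher and 2.92% lower, Ass1 was 1.67, Arg1 1.40, Cps1 1.08, Asl 1.55 and Pck1 1.07 higher, and Glul was at -6.34, Cyp2e1 at -5.65 and Cyp3a11 at -2.51. Of 17 periportal list genes compared there, 14 were 2-fold or more higher and 0 lower, and of 17 pericentral list genes 0 were higher and 15 lower. In the cells under the limit of the pool, with 1.71% of 6783 genes higher and 5.31% lower, 13 of 20 periportal and 0 of 25 pericentral list genes were higher and 0 and 20 lower. Of the 40 genes higher in the pool's members, 34 could be compared in the WT members, where only 14 had the same sign and 4 were past 2-fold, against 8.49% of all genes. All 40 could be compared in the WT cells under the limit, where 30 had the same sign and 14 were past 2-fold. In the pool's own cells under the limit 26 of 40 had the same sign and 12 were past 2-fold. Of the 26 lower genes, 14 could be compared in the WT members, where 12 had the same sign and 6 were past 2-fold, and 25 in the WT cells under the limit, where 22 had the same sign and 12 were past 2-fold.

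**Figure D2:**
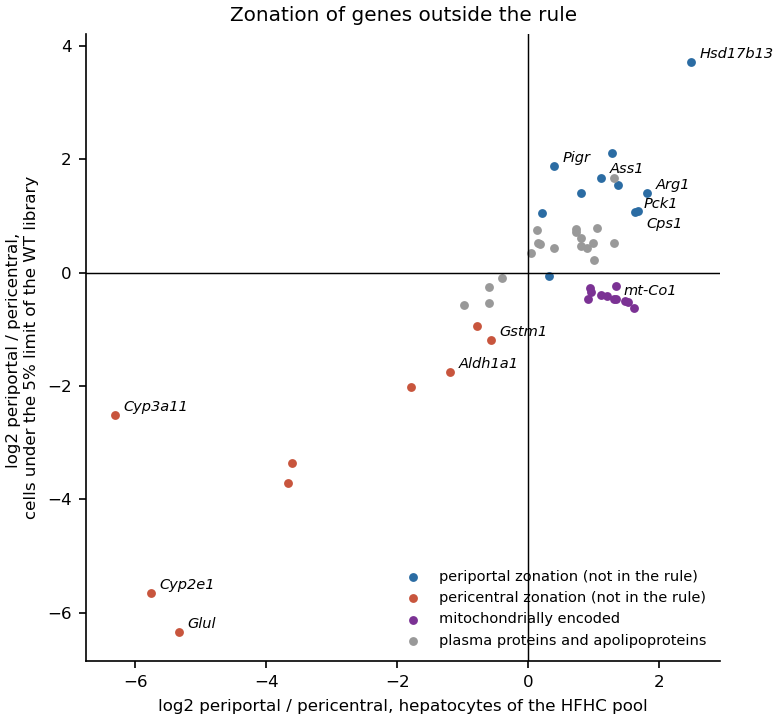
Log2 ratio of periportal to pericentral level for genes outside the rule, in the hepatocytes of the HFHC pool (horizontal axis) and in the cells under the 5% limit of the WT library (vertical axis), coloured by gene list; each point is 1 gene with at least 100 UMIs in both comparisons. Periportal list genes such as Arg1 (1.81 and 1.40) lie at the upper right and pericentral ones such as Glul (-5.34 and -6.34) at the lower left, whereas mitochondrially encoded genes such as mt-Co1 (1.33 and -0.47) change sides.

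Mitochondrially encoded genes did not keep a side. Their median was 1.30 higher in periportal than in pericentral hepatocytes of the pool (8 of 11 genes 2-fold or more higher), -0.83 in the WT library, and -1.26 and -0.43 in the cells under the limit of the pool and the WT library. Of plasma proteins, 4 of 19 were 2-fold or more higher in the pool's periportal hepatocytes with a median of 0.73, against a median of -0.47 in the pool's cells under the limit and 0.51 in those of the WT library. In the WT members 0 of 20 were higher and 2 lower, with a median of -0.46, so that these genes did not keep a side either. Serpina1e, an antitrypsin gene with near-identical copies whose reads can be split between them, was 2.36 higher in the pool's members and 0.49 higher in those of the WT library. Pigr, the receptor that carries IgA into bile, was 0.39 and 1.31 higher in the same members. In the cells under the limit it was at -0.82 in the pool and 1.87 higher in the WT library. Of fatty acid oxidation genes 0 of 9 were higher and 1 lower in the pool's members, with a median of -0.49. The 1 was Cyp4a10, a fatty acid hydroxylase, named after its value was seen, at -1.82 (-2.40 to -1.25). In the pool's cells under the limit 0 of 19 were higher and 4 lower, with a median of -0.15. In the WT members 0 of 7 were higher and 0 lower, with a median of 0.14. In the WT cells under the limit 0 of 14 were higher and 1 lower, with a median of -0.13.

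Between the libraries, 770 genes outside the rule had at least 100 UMIs in the periportal cells of both together. In the HFHC pool 34 of them (4.42%) were 2-fold or more higher and 46 (5.97%) 2-fold or more lower than in the WT library, and the median over all was 0.09 on the log2 scale. Scaled by the median of gene ratios, 23 were higher and 57 lower, and without the deepest cell of each library 29 were higher and 38 lower of 715. At a minimum of 20 UMIs the order turned, with 304 higher and 195 lower of 3151. Here too the minimum was on the sum, so that a gene could pass it through the library in which it was high alone. Mitochondrially encoded genes made up 11 of the 46. The summed UMIs behind these values were 285816 in the WT library and 220957 in the pool. Of the 34 higher genes, 32 of 32 compared in endothelial cells had the same sign, 27 past 2-fold. In B cells 29 of 30 had it, 18 past 2-fold. Of the 46 lower genes, 18 of 43 had the same sign in endothelial cells, 2 past 2-fold, and 28 of 32 in B cells, 11 past 2-fold. Over all genes, 814 of 8412 were 2-fold or more higher and 484 lower in endothelial cells, and 311 and 390 of 6238 in B cells.

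**Figure D3:**
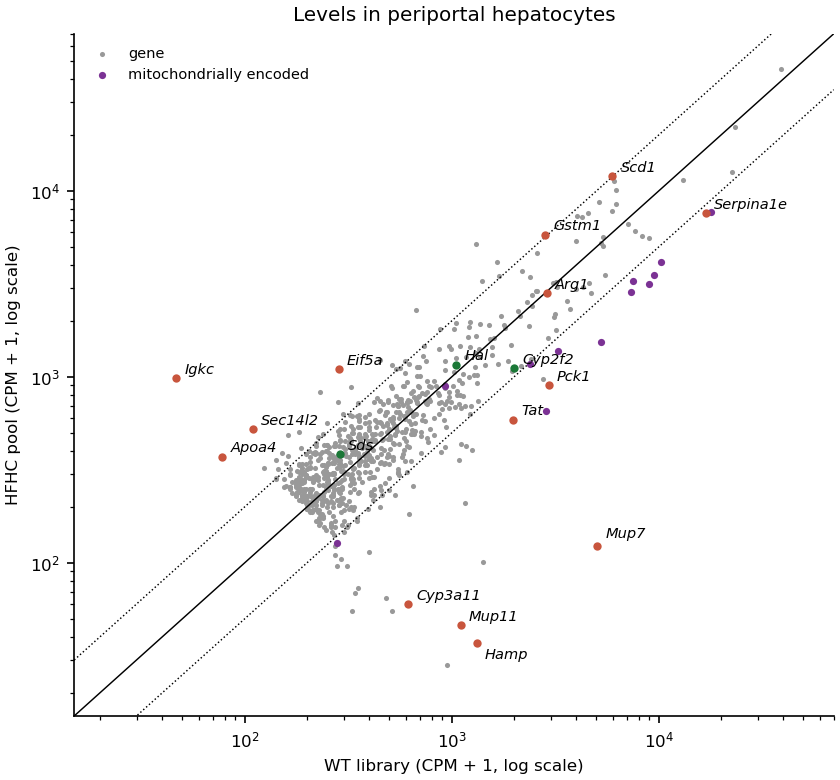
Level of each gene with at least 100 UMIs in periportal hepatocytes, as CPM + 1 on log scales, in the WT library (horizontal axis) and the HFHC pool (vertical axis); the solid line marks equal levels and the dotted lines 2-fold differences, with genes of the rule in green, mitochondrially encoded genes in purple and other labelled genes in red. Most genes lie between the dotted lines, Mup7 and Hamp lie far below them (5035 and 122 CPM, 1316 and 36.2 CPM), and 11 of 12 mitochondrially encoded genes lie below the lower dotted line.

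Major urinary protein genes had some of the lowest ratios in the pool's periportal cells. Mup7 had 1439 UMIs in 143 of 154 WT members, 5035 CPM (4778 to 5302), and 27 UMIs in 6 of 103 pool members, 122 CPM (80.5 to 178), of which 1 cell held 21. Its log2 ratio was -5.31 (-5.97 to -4.82). Mup11, Mup14 and Mup16 were at -4.47, -3.77 and -3.13. The pool's pericentral hepatocytes still held these RNAs. There Mup11 had 237 UMIs against 10 in the periportal cells, a log2 ratio of periportal to pericentral of -5.94. Mup17 had 201 against 15 (-5.16) and Mup7 73 against 27 (-2.91). In the WT library the ratios between zones were -2.97 for Mup11, -4.52 for Mup17 and 0.20 for Mup7. Major urinary proteins are pheromone carriers made by the liver in amounts that differ strongly with sex and growth hormone. Their genes are near-identical copies, so that reads can be split or dropped among them and the value of any one copy is uncertain. In B cells, which should lack them, Mup7 was at 85.3 and 11.4 CPM, a ratio of -2.86, so that the RNA outside hepatocytes differed in the same direction.

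Hamp had 376 UMIs in 73 of 154 WT members, 1316 CPM (1186 to 1455), and 8 UMIs in 5 of 103 pool members, 36.2 CPM (15.6 to 71.3). The log2 ratio was -5.02 (-6.41 to -4.19). One WT cell held 101 of the 376 UMIs, and without the deepest cell of each library the ratio was -4.64. After thinning to 1000 UMIs a Hamp UMI was left in 45.0% and 1.43% of members and in 2.74% and 0.52% of B cells. Among the cells under the limit the ratio was -3.33, in other hepatocytes -3.70 and in B cells -2.77. Hamp was thus lower in the pool in these 4 classes of cells, B cells included.

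Pck1 and Tat, genes known to be switched on by fasting and glucocorticoids, were lower in the pool. Pck1 had 840 UMIs in 129 WT members, 2939 CPM (2744 to 3145), and 200 UMIs in 67 pool members, 905 CPM (784 to 1040), a log2 ratio of -1.69 (-1.93 to -1.47). It was at -1.90 in the cells under the limit, -2.14 in other hepatocytes and -0.96 in B cells. Tat, tyrosine aminotransferase, a classical target of the glucocorticoid receptor, had 564 and 130 UMIs and a ratio of -1.74 (-2.03 to -1.47). Igfbp1, an insulin-suppressed binding protein, had 37 and 6 UMIs, -2.07 (-3.79 to -1.0), and Errfi1 was at -0.84. The 12 genes of the glucocorticoid list summed to 3002 CPM (2804 to 3210) and 1086 CPM (953 to 1233), with 2 genes tested and 1 of them 2-fold or more lower. Most of these UMIs belonged to Tat. Klf9 of the same list had 45 and 26 UMIs, -0.40 (-1.18 to 0.31). With a minimum of 20 UMIs 5 genes of the list could be compared, 0 higher and 3 lower, with a median of -1.74. Over all genes 304 of 3151 were higher and 195 lower at that minimum. The list was lower in other classes as well. Its median was -1.55 in the cells under the limit, -1.32 over 9 genes in B cells, -0.93 over 10 in T cells and -1.38 over 9 in endothelial cells.

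Other gluconeogenesis genes lay on both sides of 0. Of 9 genes of the list 5 could be compared, 0 were 2-fold or more higher and 1, Pck1, was lower, and the median was 0.26. Fbp1, fructose bisphosphatase, was 0.33 higher and Mdh1 0.26 higher. At a minimum of 20 UMIs 7 genes could be compared, of which 1 was higher and 2 were lower. Over all genes 304 of 3151 were higher and 195 lower at that minimum. G6pc, glucose-6-phosphatase, the last step of glucose release, named after its values were seen, had 64 and 15 UMIs. Glycolysis genes lay above 0 in 7 of 7 cases, with a median of 0.79 and 1 of them past 2-fold. Over all genes the median was 0.09, and 4.42% were 2-fold or more higher. Ldha, lactate dehydrogenase A, had 80 and 162 UMIs, 280 and 733 CPM, a ratio of 1.38 (0.99 to 1.79), and Gapdh was at 0.77 (0.62 to 0.92). In the cells under the limit the glycolysis median was 0.72 and in B cells 0.43. It was 0.69 in other hepatocytes, 1.18 in endothelial cells and 0.26 in T cells, so that it was not particular to the periportal cells.

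**Figure D4:**
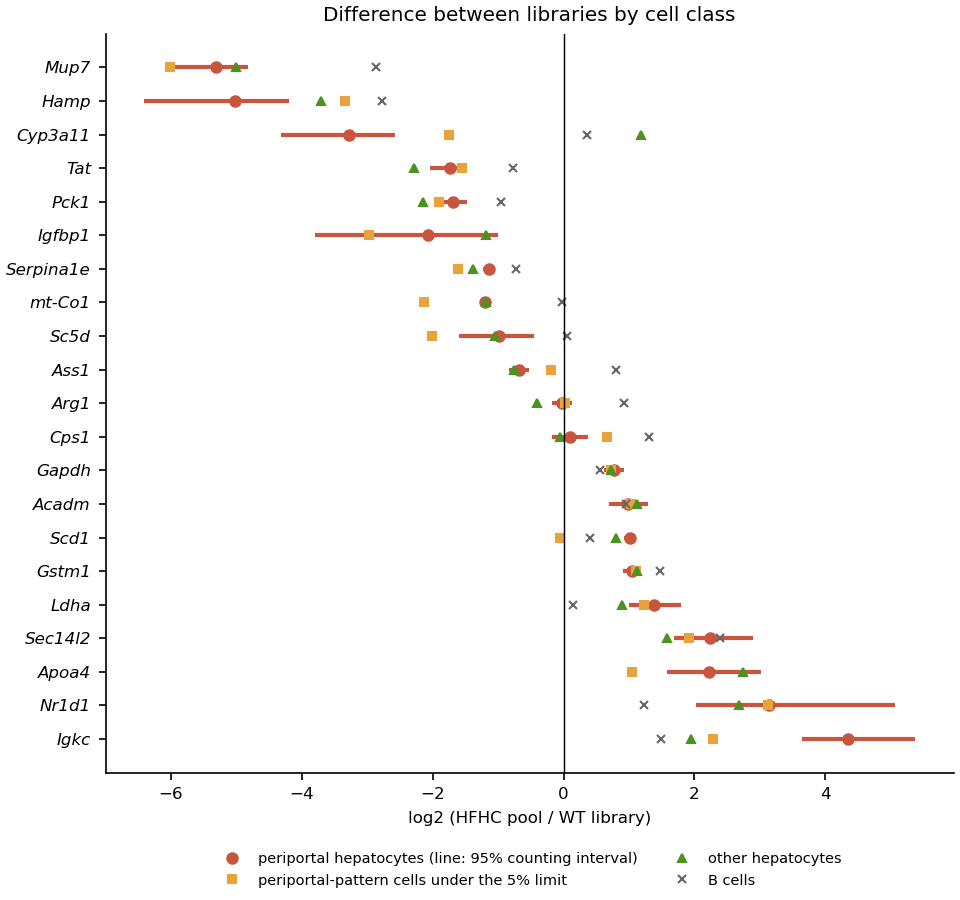
Log2 ratio of the HFHC pool to the WT library (horizontal axis) for named genes (rows) in periportal hepatocytes, with 95% counting intervals as lines, and in 3 other classes of cells as symbols without intervals. Mup7 and Hamp lie at the left in all classes shown, Sec14l2 at the right in all, and Cyp3a11 and mt-Co1 lie apart between classes.

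Of 8 urea cycle genes 7 could be compared between the libraries, 1 was 2-fold or more higher and 0 lower, with a median of -0.12, and most genes of any kind were within 2-fold. Arg1 was at 2872 CPM (2679 to 3076) and 2829 CPM (2611 to 3059), and the intervals overlapped. Cps1 was at 836 and 896 CPM, a ratio of 0.10 (-0.18 to 0.38), and Otc at -0.12 (-0.38 to 0.12), with both intervals reaching across 0. Ass1 was lower, 3726 and 2326 CPM, -0.68 (-0.83 to -0.53), and so was Asl, -0.57 (-0.91 to -0.24), whereas Slc25a13, which supplies aspartate to the cycle, was 1.18 higher (0.76 to 1.63). In the cells under the limit Ass1 was at -0.20, Asl at -0.23 and Slc25a13 at 0.68. Of amino acid catabolism 19 of 24 genes could be compared, with 0 higher, 3 lower and a median of -0.11. Over all genes 4.42% were higher and 5.97% lower. The 3 lower ones were Tat and, named after their values were seen, Agxt, which detoxifies glyoxylate, with 177 and 40 UMIs, and Gpt, alanine aminotransferase, with 78 and 27 UMIs. With 20 UMIs or more 22 genes of the list could be compared, 1 higher and 3 lower, and the median changed sign to 0.11. At that minimum 304 of 3151 genes of any kind were higher and 195 lower. Glud1, glutamate dehydrogenase, was 0.69 higher, Hpd, of tyrosine breakdown, 0.89 higher, and Tdo2, of tryptophan breakdown, at -0.11.

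Of 21 genes of fatty acid oxidation and ketogenesis 10 could be compared. All 10 lay above 0, 1 of them past 2-fold, and the median was 0.69 against 0.09 over all genes. With 20 UMIs or more 16 could be compared, 5 higher and 0 lower, with a median of 0.87. Over all genes 304 of 3151 were higher and 195 lower at that minimum, with a median of 0.14. Acadm, the dehydrogenase for medium-chain fatty acids, had 161 UMIs in 85 WT members, 563 CPM (480 to 657), and 247 UMIs in 71 pool members, 1118 CPM (983 to 1266). Its log2 ratio was 0.99 (0.70 to 1.28), and that of Acaa2, the thiolase of mitochondrial oxidation, was 0.74 (0.46 to 1.02). In the cells under the limit the median of the list was 0.89, and in B cells 0.95, where the levels summed to 733 and 1434 CPM against 5689 and 10943 CPM in the members. The difference between the libraries was therefore present in B cells as well, at a far lower level, and the part of RNA from outside the cells in it was not tested.

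Of lipid synthesis, Scd1 stood out. This desaturase, which makes monounsaturated fatty acids, had 1706 and 2654 UMIs, 5969 CPM (5689 to 6259) and 12011 CPM (11559 to 12477), a ratio of 1.01 (0.92 to 1.1), but it was at 0.98, under 2-fold, without the deepest cell of each library and at -0.05 in the cells under the limit. The 7 fatty acid synthesis genes compared had 1 higher, 0 lower and a median of 0.07, with Elovl5 at 0.85, Me1 at 0.07 and Thrsp at -0.36. Cholesterol synthesis genes were low, and 3 of 21 could be compared, with 0 higher, 1 lower and a median of -0.99, or -0.70 over 2 genes without the deepest cells. With 20 UMIs or more 8 could be compared, 0 higher and 1 lower, and the median was only -0.45. At that minimum 304 of 3151 genes of any kind were higher and 195 lower. Idi1, of the isoprenoid pathway, had 79 and 21 UMIs, -1.49 (-2.31 to -0.83), Sc5d, of the last steps to cholesterol, 99 and 38 UMIs, -0.99 (-1.59 to -0.46), and Insig1, which restrains the pathway, was at -0.39 (-1.02 to 0.18). Sterol exporters summed to 227 and 267 CPM with 0 of 7 genes compared. Lipid droplet genes had 2 of 15 compared, 0 past 2-fold, with Plin2, the coat protein of droplets, at 164 and 253 CPM, 0.62 (0.04 to 1.22), and Cideb at -0.21. Bile acid genes had 2 of 13 compared, 0 past 2-fold and a median of 0.46, which turned to -0.78 in the cells under the limit. With 20 UMIs or more 1 of 11 was higher and 3 were lower, against 304 and 195 of 3151 over all genes.

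Secreted proteins lay on both sides of 0. Of 21 plasma protein genes 20 could be compared, 10 lay above and 10 below 0, 1 was 2-fold or more higher and 0 lower, and the median was -0.03. The 1 was Fgb, the beta chain of fibrinogen, with 481 and 768 UMIs, named after its values were seen. Apoc1 was 0.77 higher, Gc, the vitamin D carrier, 0.45 higher, Apoc3 at -0.64 and Apoe at -0.54. Apoa4, an apolipoprotein of lipid-rich particles, had 22 and 82 UMIs, 77.0 and 371 CPM, a ratio of 2.22 (1.58 to 3.02). Serpina1e was at -1.14 (-1.22 to -1.06), under the limit on near-identical copies given above. Complement genes had 11 of 20 compared, 0 higher, 1 lower and a median of -0.04, with C3 at -0.04, C9 at -0.52 and the 1 past 2-fold, C8b, at 86 and 32 UMIs, named after its values were seen. At 20 UMIs or more 18 complement genes could be compared, 0 higher and 1 lower, with a median of -0.38. Acute phase genes had 4 of 19 compared, 0 past 2-fold and a median of 0.28, with Hp, haptoglobin, 0.69 higher and Orm1 at -0.40. With 20 UMIs or more 13 of them could be compared, 4 higher and 1 lower, with a median of 0.37. Over all genes 304 of 3151 were higher and 195 lower at that minimum. In the cells under the limit the medians of the plasma protein and complement lists were -1.21 and -1.08, far from those of the members.

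The highest genes of the pool were of mixed kinds. Igkc, the immunoglobulin kappa constant region, had 13 and 218 UMIs, a ratio of 4.34, of which 1 pool cell held 148. It was at 19599 and 54812 CPM in B cells. Sec14l2, a tocopherol-binding protein, had 31 and 116 UMIs, 2.24 (1.69 to 2.9), and was at 2.39 in B cells. Gm42418, a locus that collects ribosomal RNA reads, was 1.98 higher, and 2.44 in B cells. Eif5a, a translation factor, was 1.94 higher, and 1.67 in B cells. Nr1d1, the clock repressor REV-ERBα, had 5 and 40 UMIs, 3.14 (2.03 to 5.07), under the minimum of 100 UMIs, and with Nr1d2 at 4 and 12 UMIs, Hlf at 28 and 32 and Clock at 12 and 7 it made up most of the 16 clock genes, which summed to 308 and 520 CPM. Gstm1, a glutathione transferase known for its pericentral level, was 1.04 higher and Aldh1a1 0.82 higher, while Cyp3a11 was at -3.28 with 175 and 13 UMIs. One WT cell held 91 of the 175 UMIs of Cyp3a11. The 5 pericentral list genes compared had 1 higher, 1 lower and a median of 0.02, or 0.35 over 4 genes without the deepest cell of each library, when Cyp3a11 fell under the minimum, and the 15 periportal list genes 1 higher, Hsd17b6 with 43 and 86 UMIs, named after its values were seen, 1 lower, Pck1, and a median of -0.35.

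Stress lists gave few values. Of 25 genes known to respond to tissue dissociation 5 could be compared, 0 past 2-fold, with a median of -0.06, and Hspd1 and Hspa8, heat shock chaperones, were 0.81 and 0.53 higher and Jund at -0.24. The median of this list was 0.50 over 13 genes with 20 UMIs or more, of which 2 were higher and 0 lower. Over all genes 304 of 3151 were higher and 195 lower at that minimum. After thinning the median was 0.38 over 3 genes. Endoplasmic reticulum stress genes had 2 of 13 compared, 0 past 2-fold, with Hspa5 at 0.09 and Herpud1 at -0.43, while Atf4 with 22 and 44 UMIs was at 1.34 (0.60 to 2.18). Injury and regeneration genes had 1 of 12 compared, Krt18 at -0.39 (-1.02 to 0.20). Of the 4 midlobular genes only Hamp could be compared, and Cyp8b1, of bile acid synthesis, had 36 and 20 UMIs, -0.45 (-1.34 to 0.35). Several list medians changed sign in the cells under the limit, among them the urea cycle at 0.18, amino acid catabolism at 0.05, gluconeogenesis at -0.19, fatty acid synthesis at -0.07, acute phase at -0.16, tissue dissociation at 0.07 and injury at 0.61.

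Mitochondrially encoded genes were lower in the pool together. Of 13 genes 12 could be compared, 0 were higher and 11 were 2-fold or more lower, with a median of -1.27. Their sum was 76381 CPM (75371 to 77401) in the WT members and 30436 CPM (29713 to 31172) in the pool members. mt-Co1, cytochrome oxidase subunit 1, had 5095 and 1711 UMIs, -1.20 (-1.28 to -1.12), and mt-Nd4l, named after its value was seen, was the exception at -0.06 (-0.33 to 0.21). The deepest WT cell held 25.4% of the mt-Co1 UMIs of its library, and without the deepest cell of each library mt-Co1 was at -0.86 and the median at -1.0, with 6 of 11 genes 2-fold or more lower. B cells did not show the difference, with 104341 and 94834 CPM and a median of -0.03, whereas the cells under the limit showed a larger one, with a median of -2.16.

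**Figure D5:**
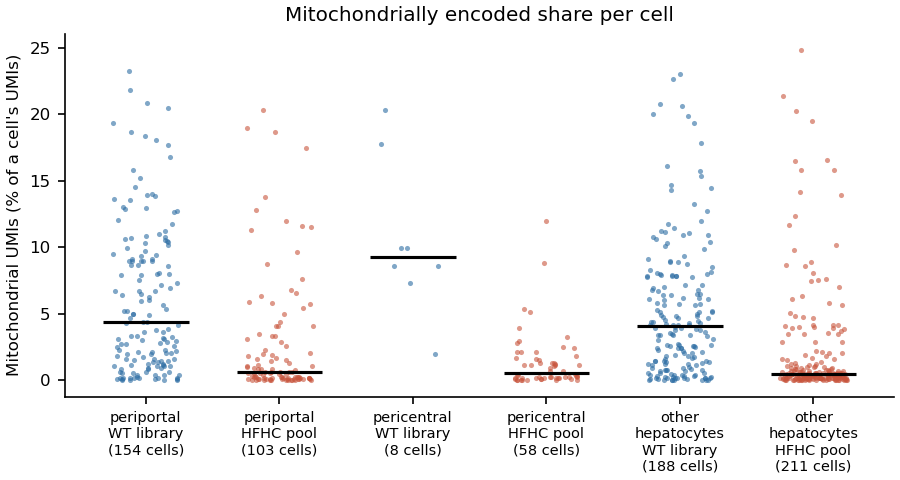
Share of each cell's UMIs that come from mitochondrially encoded genes (vertical axis, percent), 1 point per cell, in the periportal, pericentral and other hepatocytes of each library; black lines are medians. The medians of the periportal cells are 4.38% in the WT library and 0.61% in the HFHC pool, and their upper quartiles 9.47% and 3.39%. Both groups range from 0% to above 20%, capped by the rule's limit on this share.

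Cell by cell, the mitochondrial share of the members ran from 0% over a median of 4.38% to 23.2% in the WT library. In the pool it ran from 0% over 0.61% to 20.3%. The ranges overlapped over nearly their whole length, but the rule's limit on this share capped both from above. The lower and upper quartiles were 1.38% and 9.47% in the WT library and 0.13% and 3.39% in the pool. The upper quartile of the pool thus lay below the WT median. Over 10% were 36 of 154 and 10 of 103 members. The medians in kept cells of all types were 6.56% and 1.64%, and in the periportal-pattern cells under the limit 1.08% and 0.17%. Along the bins of hepatocyte share the mitochondrial level first went from 25513 to 16977 CPM and then up to 84579 CPM in the WT library, and from 6447 to 4450 CPM and then up to 49891 CPM in the pool. The part of the mitochondrial share in the other differences between the libraries was not tested. The counts of the library comparison without the 12 mitochondrially encoded genes were 34 higher and 35 lower of 758, with a median of 0.10.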

How the data were processed

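Single cells of mouse liver were profiled with the BD Rhapsody whole-transcriptome assay. Per the file headers, the authors ran the BD Rhapsody WTA Analysis Pipeline 1.10.1 on GRCm38 with GENCODE M19, and the deposited values are UMI counts per gene and cell after the pipeline's error correction and cell calling, not scaled. The submitters' processing notes also name Seurat. The library of sample tags was not used here, since no tag call per cell came with the counts. UMIs were summed over the cells of a class within each library and given as CPM with exact Poisson intervals, the interval of a ratio being the exact conditional one. Log2 ratios had 1 UMI added, and a gene was called at 2-fold or more if it had at least 100 UMIs in the groups together. Genes of the rule were left out of all such counts. With 1 library per condition no p-value was computed, and intervals cover counting error only. B cells were taken with at least 3 UMIs of their markers and endothelial cells with at least 5. Pericentral hepatocytes met the mirrored rule. Doublets called by Scrublet (scanpy 1.11.5), 7.16% and 2.36% of kept cells, were kept and taken out only as an alternative. Named genes were the genes of the rule, Chil1, the 4 members of each list with the most UMIs, whole lists of 8 genes or fewer, and the 5 genes at either end of each comparison with at least 10 UMIs in each group. The members and the lists were chosen with earlier results of these data known. Some genes that the rule names are not reported here. Promoters came from RefSeq. Python 3.11.15, numpy 2.4.6, scipy 1.17.1 and matplotlib 3.10.9 were used, and the ratios were tested on simulated counts.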

Additional observations from a re-analysis of the deposited data

How the results depend on the processing

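The number of periportal cells, 154 and 103, followed the limits of the rule. Hepatocyte genes at 15% or more of UMIs left 0 cells in the WT library and 0 in the pool, so that no ratio could be computed there. Zone UMIs of at least 5 and 4 times the other zone left 84 and 45 cells, 24% and 12.1% of hepatocytes. The rule without Cyp2f2 left 54 and 65 cells, 15.4% and 17.5%. Thinning to 1000 UMIs left 74 and 44 cells, 43.8% and 21.7%. A limit of 1% of hepatocyte genes, chosen after seeing the data, gave 951 and 2307 cells, 27.2% and 27.7%, and turned the list medians of gluconeogenesis to -0.21, bile acid genes to -0.95, the urea cycle to 0.23, acute phase genes to -0.10, amino acid catabolism to 0.097, fatty acid synthesis to -0.085 and tissue dissociation to 0.17. It moved the medians of plasma proteins to -1.24, complement to -1.25, endoplasmic reticulum stress to -1.01, mitochondrially encoded genes to -2.41 and the pericentral list to 0.72. In the comparison of libraries, 34 genes higher and 46 lower of 770 became 14 and 23 of 248 after thinning. They became 304 and 195 of 3151 at 20 UMIs or more, and 580 and 424 of 6426 at the 1% limit, where Scd1 turned to -0.081. Between zones of the WT library, 36 higher and 28 lower of 424 became 19 and 11 of 142 after thinning and 134 and 400 of 2032 at 20 UMIs. Taking the mean over cells gave 56 of 424 higher and the stricter zone rule 16 of 300 lower. The 1% limit gave 71 of 2696 lower, and there Hspa5 turned to 0.64 and Mbl2 to 0.049. Between zones of the pool, 40 and 26 of 481 became 13 and 9 of 116 after thinning and 194 and 187 of 2173 at 20 UMIs. The 1% limit gave 120 and 326 of 6768, and there C3 turned to -0.31, mt-Co1 to -0.94, mt-Cytb to -0.99 and mt-Nd2 to -1.14. Fewer genes or cells enter by construction after thinning, and for the other settings the cause was not tested. Of the values of single genes and lists, 1385 moved by less than their spread, 225 moved further and 7 reversed. The mean had the other sign than the median for the pericentral list, at -0.29, gluconeogenesis, at -0.055, and tissue dissociation, at 0.061. No paired analysis was possible because each condition had 1 library. Sums of 285816 and 220957 UMIs limited the comparison to the more abundant genes.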
